A study of Mus musculus with 2 samples.

Results

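Transcripts of 7 channel genes were followed across the cell classes of mouse cerebral cortex: the connexin genes Gjb1, Gjc3, Gjb6, Gjb2 and Gjd2 and the pannexin genes Panx1 and Panx2. They were chosen by symbol, and all 7 were found among the 30905 genes of the count matrix. Single nuclei of frozen cortex were profiled from untreated wild-type C57BL/6 mice at 18 months and at 2 months of age. Each age gave 1 sample, for which 3 animals were pooled, and the series text widens both ages to ranges. Barcodes of both samples stand in a single matrix and are told apart only by a suffix, here library 1 and library 2. Which suffix is which age is not labelled, so ages were not compared, the matrix was treated as 1 sample, and values of the libraries stand side by side without a test.

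Connexins assemble into channels that join the cytoplasm of neighbouring cells, whereas pannexins form channels in a single membrane through which ATP and other small molecules pass. In brain, astrocytes and oligodendrocytes are coupled to each other by gap junctions built from different connexins on each side, the meninges form a coupled sheet of their own, and some neurons are joined by electrical synapses. Gjb1 encodes Cx32 and Gjc3 encodes Cx29, both known from myelinating cells. Gjb6 encodes Cx30 of astrocytes, Gjb2 encodes Cx26, known from the meninges, and Gjd2 encodes Cx36 of electrical synapses. Panx1 encodes a widely present ATP release channel, and Panx2 a relative described in neurons and glia.

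The matrix held 58108297 UMIs (unique molecular identifiers, each marking 1 RNA molecule) over 8914 barcodes in library 1 and 60547146 UMIs over 8587 barcodes in library 2. After filtering, 8286 and 7954 nuclei remained. Nuclei were clustered without the 7 genes, and the comparison covers the 10 classes that had 50 nuclei or more in both. Class names rest on marker genes and mean resemblance to a cell type. The class called pericytes here was named from markers of pericytes or smooth muscle, which were not told apart. The tissue is labelled cortex, and 391 and 233 nuclei carried markers of striatal projection neurons. Oligodendrocytes (894 and 372 nuclei), astrocytes (445 and 428), microglia (217 and 210) and fibroblasts (210 and 231) had medians of 1687 to 3368 UMIs per nucleus, against 7076 to 8441.5 UMIs in excitatory and inhibitory neurons. The summed level of 7 excitatory markers in microglia was 0.998 and 1.03 times that in excitatory neurons, with none of the 7 at 0 in microglia. The same ratio was 0.908 and 0.912 in oligodendrocytes, 1.03 and 0.938 in pericytes and 0.659 and 0.744 in astrocytes. In precursors, endothelial nuclei and fibroblasts it lay from 0.533 to 0.661. The part of neuronal RNA in the low levels of glia was not tested.

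Kept nuclei held 40 and 31 UMIs of Gjb1, 118 and 196 of Gjb2, 401 and 349 of Gjb6, 782 and 618 of Gjc3, 75 and 68 of Gjd2, 694 and 586 of Panx1, and 942 and 602 of Panx2. All 7 passed the minimum of 20 UMIs in both libraries. Levels are given in CPM, the UMIs of a gene per 1000000 UMIs of the class, with exact 95% Poisson intervals, and ratios have exact conditional 95% intervals. For a count of 0 the limit given is that of 3 UMIs over the class total, in place of the interval. Nuclei are not replicates, so intervals cover counting error only. The counts come from tags at 1 end of the RNA and carry no gene length, so levels are compared within a gene and not between genes.

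Gjb1 and Gjc3 had their highest level in oligodendrocytes in both libraries, a class that was highest in both for 4.28% of the 16224 genes with at least 20 UMIs in each. Gjb2 and Gjb6 were highest in fibroblasts, as were 6.64% of all genes, and Gjd2 in inhibitory neurons, as were 3.35%. Panx1 was highest in inhibitory neurons in library 1 and in precursors in library 2, as were 6.45% and 7.94% of genes, and Panx2 in precursors in library 1 and in microglia in library 2, as were 7.23% and 15.6%. By class, 2 of 7, 2 of 7 and 1 of 7 genes are too few to set the group apart from these shares.

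**Figure D1:**
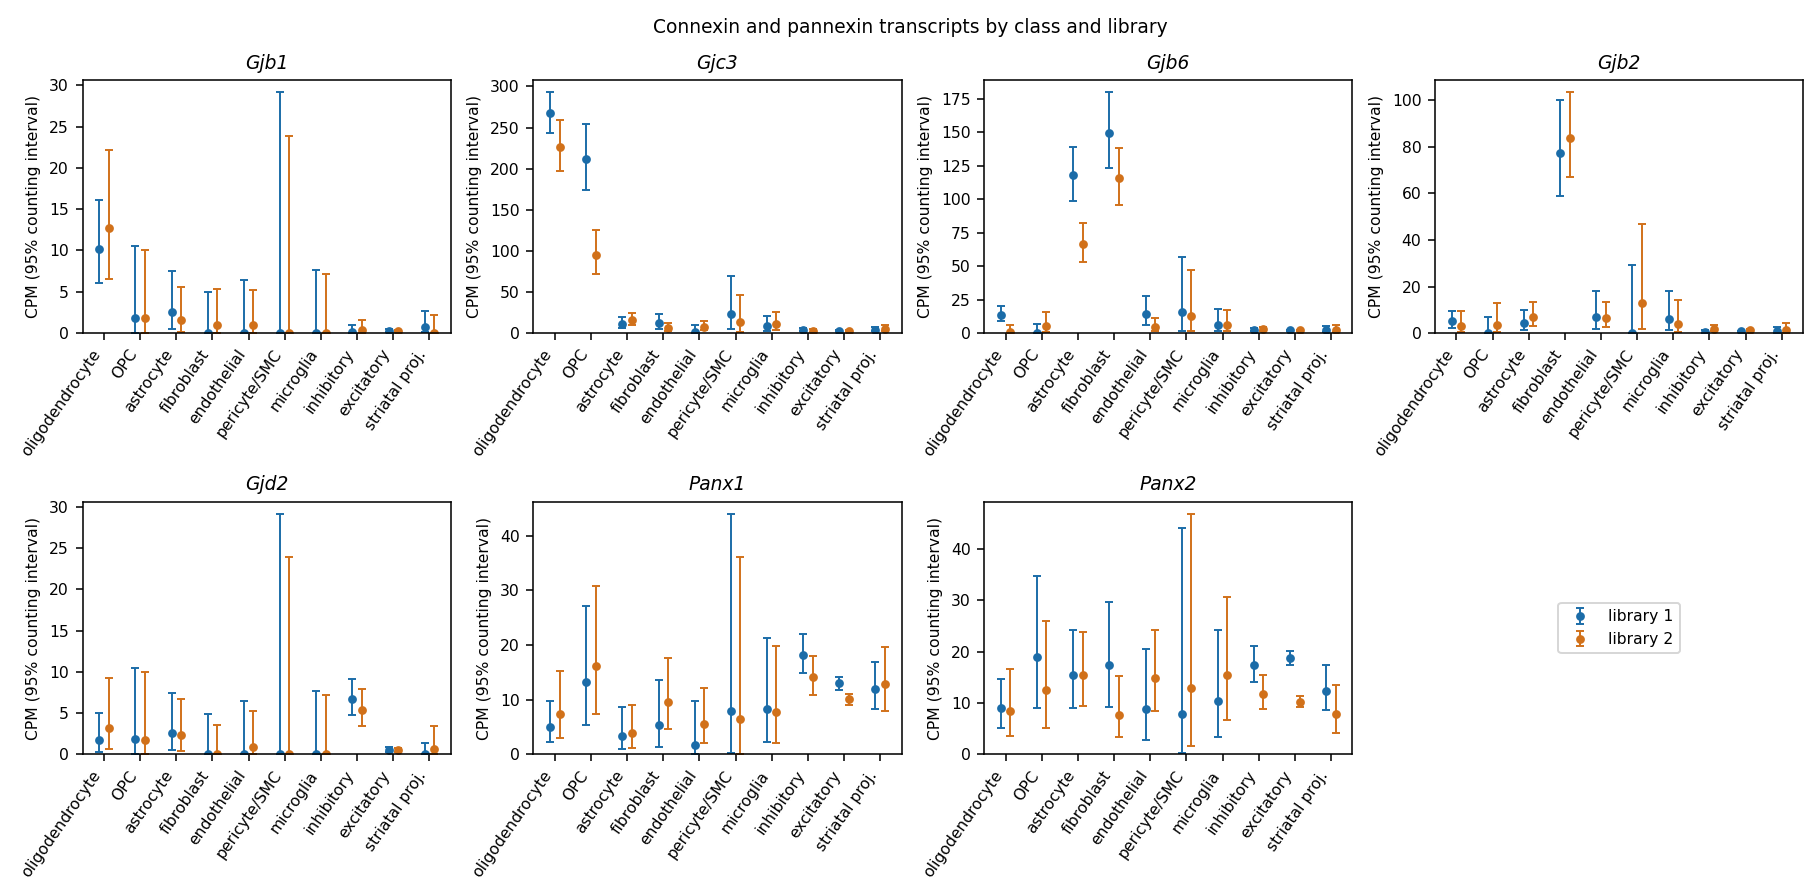
CPM of each gene (y axis, 1 panel a gene) in the 10 compared classes (x axis) of library 1 (blue) and library 2 (orange), where points are class sums and bars exact 95% Poisson intervals. Gjc3 stands out in oligodendrocytes and their precursors (OPC), Gjb6 in fibroblasts and astrocytes and Gjb2 in fibroblasts, whereas the Panx2 intervals overlap over most classes.

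Sequences before the transcription start are shown for both pairs of connexins with a shared highest class, so that the letters beside each gene can be compared. They are the 250 bases before a start site from RefSeq (GRCm38.p6), read in the direction of the gene. No exon of GENCODE vM21 overlaps any of these 4 windows. RefSeq windows were at hand for 6 of the 7 genes and Panx2 was not among them. For Gjb1 and Gjc3, capitals mark the letters ACAAAG or ACAAT on either strand, the core letters that SOX factors of the oligodendrocyte lineage bind. Gjb1 has 4 listed start sites, and the window of the last of them along the gene is shown, chosen after its letters were seen.
Gjb1 (chrX:101383482-101383731, + strand): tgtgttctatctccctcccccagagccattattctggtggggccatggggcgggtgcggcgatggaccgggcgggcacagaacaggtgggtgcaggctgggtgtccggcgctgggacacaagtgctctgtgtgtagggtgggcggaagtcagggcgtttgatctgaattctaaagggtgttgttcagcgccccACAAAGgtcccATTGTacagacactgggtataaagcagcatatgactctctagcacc
Gjc3 (chr5:137963099-137963348, - strand): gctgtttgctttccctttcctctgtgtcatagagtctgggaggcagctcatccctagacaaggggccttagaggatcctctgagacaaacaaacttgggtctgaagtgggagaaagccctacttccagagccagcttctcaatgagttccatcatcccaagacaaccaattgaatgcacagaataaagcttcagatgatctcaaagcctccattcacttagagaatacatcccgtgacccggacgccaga
In this Gjb1 window the letters ACAAAG begin 57 bases before the start, and ACAAT on the other strand 46 bases before it. The window of 1 other Gjb1 start also holds both. The Gjc3 window holds neither. ACAAAG occurs in 16.5% of all 32851 windows of the same length, ACAAT in 27.7% and both in 5.31%, so a match is a description of these letters only.

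For Gjb2 and Gjb6, neighbours on chromosome 14, capitals mark GGGCGG on either strand, the letters of a GC box.
Gjb2 (chr14:57104703-57104952, - strand): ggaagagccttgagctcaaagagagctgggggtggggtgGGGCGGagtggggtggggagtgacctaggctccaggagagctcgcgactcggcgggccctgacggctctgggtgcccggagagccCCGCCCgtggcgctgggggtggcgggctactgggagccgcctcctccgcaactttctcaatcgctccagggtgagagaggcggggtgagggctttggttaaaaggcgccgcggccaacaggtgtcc
Gjb6 (chr14:57133612-57133861, - strand): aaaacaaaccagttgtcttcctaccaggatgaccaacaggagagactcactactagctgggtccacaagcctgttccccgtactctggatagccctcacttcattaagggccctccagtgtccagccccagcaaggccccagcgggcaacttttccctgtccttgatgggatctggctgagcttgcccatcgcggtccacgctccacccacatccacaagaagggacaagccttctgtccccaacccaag
The Gjb2 window holds 2 such matches and the Gjb6 window none, beside 32.7% of all windows with at least 1. G and C made up 69.2% of the Gjb2 window and 56.8% of the Gjb6 window.

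Gjc3 was high throughout the oligodendrocyte lineage. The gene lies on chromosome 5 from 137953461 to 137963098 on the minus strand (mm10, GENCODE vM21). Oligodendrocytes held 471 UMIs at 268 CPM in library 1 (95% interval 244 to 293) and 214 UMIs at 227 CPM in library 2 (197 to 259). Oligodendrocyte precursors held 112 UMIs at 211 CPM (174 to 254) and 53 UMIs at 95.4 CPM (71.5 to 125). The oligodendrocyte level was 1.27 times that of precursors in library 1 (1.03 to 1.57) and 2.38 times in library 2 (1.75 to 3.27). Both intervals lay above 1, and that of library 1 only barely. All other classes stood at or below 23.7 CPM in library 1 and 16.2 CPM in library 2. Gjc3 in precursors was 19.0 times the astrocyte level in library 1 (10.7 to 36.9) and 5.89 times in library 2 (3.49 to 10.3).

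Summed over 8 oligodendrocyte markers, among them Mbp and Mog of myelin, precursors held 621 and 731 CPM, against 8148 and 13625 CPM in oligodendrocytes. That is 0.0762 and 0.0536 of the oligodendrocyte sum, and no marker was at 0. These markers were also used to name the classes. Gjc3 in precursors stood closer to the oligodendrocyte level than their sum did, in both libraries. The part of oligodendrocyte RNA in the precursor level was not tested.

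Cluster 27, whose leading genes include Cldn14, Enpp6 and Bcas1, had 5 nuclei in library 1 and 95 in library 2. It kept no class name because markers of newly formed oligodendrocytes led those of oligodendrocytes by too little. Gjc3 stood at 643 CPM there in library 1 (12 UMIs, 332 to 1123) and at 291 CPM in library 2 (136 UMIs, 244 to 345). This was 2.40 times the oligodendrocyte level in library 1 (1.23 to 4.24) and 1.29 times in library 2 (1.03 to 1.60), and 3.04 (1.53 to 5.53) and 3.05 (2.21 to 4.28) times the precursor level. Cluster 27 therefore held the highest Gjc3 level of the lineage in both libraries, although its library 1 value rests on 5 nuclei.

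Per nucleus, Gjc3 was seen in 347 of 894 oligodendrocytes of library 1 (38.8%) and in 148 of 372 of library 2 (39.8%). At least 2 UMIs were present in 93 and 42 of them, and at most 6 and 8. After thinning each nucleus to 1500 UMIs the shares were 32.3% (exact binomial interval 29.0 to 35.7) and 27.9% (23.4 to 32.9). Precursors had 22.1% (15.4 to 30.2) and 10.9% (6.48 to 16.9). Microglia, a class that should lack Gjc3, had 2.40% (0.656 to 6.02) and 2.48% (0.808 to 5.68). Unthinned, microglia had 1.84% and 2.86% at median depths of 1687 and 1980 UMIs, against medians of 1876.5 and 2378 UMIs in oligodendrocytes. The oligodendrocyte and precursor shares lie above this background in both libraries.

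Gjb1 was rare but followed the same class. The gene lies on chromosome X from 101376378 to 101385629 on the plus strand. Oligodendrocytes held 18 UMIs at 10.2 CPM in library 1 (6.06 to 16.2) and 12 UMIs at 12.7 CPM in library 2 (6.57 to 22.2). Each of these UMIs fell in a nucleus of its own. Astrocytes held 3 and 2 UMIs, at 2.56 CPM (0.528 to 7.48) and 1.54 CPM (0.187 to 5.57), and precursors 1 UMI in each library. The oligodendrocyte level was 3.99 times that of astrocytes in library 1 (1.17 to 21.2) and 8.24 times in library 2 (1.83 to 75.8). Against precursors the ratio was 5.42 (0.856 to 226) and 7.06 (1.04 to 302), so the 2 classes could not be set apart at this depth in library 1. Microglia and pericytes held 0 UMIs in both libraries, which allows up to 6.22 and 5.82 CPM in microglia and 23.7 and 19.4 CPM in pericytes.

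Excitatory neurons held 11 and 8 Gjb1 UMIs, at 0.294 and 0.196 CPM, so oligodendrocytes stood 34.8 (15.5 to 81.4) and 64.9 (24.4 to 183) times higher. In cluster 27 Gjb1 had 0 UMIs in library 1 and 2 UMIs in library 2, at 4.29 CPM (0.519 to 15.5). Gjb1 was 3.68% of the summed Gjb1 and Gjc3 UMIs in oligodendrocytes of library 1 (2.20 to 5.76) and 5.31% in library 2 (2.77 to 9.09), beside 1.45% in cluster 27 of library 2 (0.176 to 5.14). Of the oligodendrocytes with a Gjb1 UMI, 10 of 18 and 8 of 12 also had Gjc3.

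**Figure D2:**
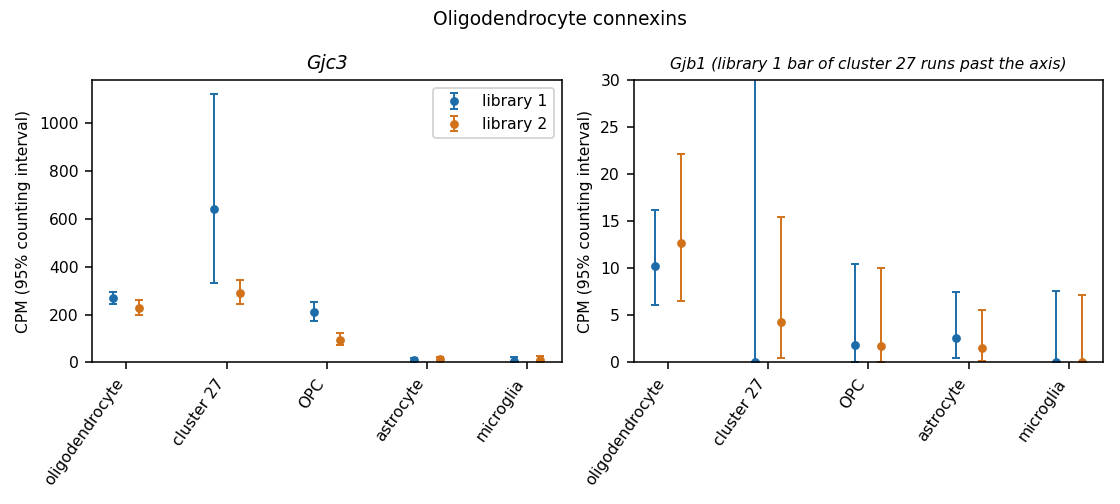
CPM of Gjc3 (left) and Gjb1 (right) in oligodendrocytes, cluster 27, oligodendrocyte precursors (OPC), astrocytes and microglia of library 1 (blue) and library 2 (orange), with exact 95% Poisson intervals. Gjc3 is high in all 3 groups of the lineage and highest in cluster 27, whereas Gjb1 has its highest point in oligodendrocytes, and its bar for cluster 27 of library 1, with 0 UMIs, runs past the axis.

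Gjb6, the astrocyte connexin, was at least as frequent in fibroblasts. It lies on chromosome 14 from 57123303 to 57133611 on the minus strand. Fibroblasts held 112 UMIs at 149 CPM in library 1 (123 to 180) and 120 UMIs at 116 CPM in library 2 (95.9 to 138). Astrocytes held 138 UMIs at 118 CPM (98.9 to 139) and 86 UMIs at 66.3 CPM (53.0 to 81.9). The fibroblast level was 1.27 times the astrocyte level in library 1 (0.980 to 1.64) and 1.74 times in library 2 (1.31 to 2.33). The classes were apart in library 2 and could not be told apart at this depth in library 1. No other class exceeded 15.8 CPM in library 1 or 12.96 CPM in library 2.

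Astrocyte transcripts were also present in fibroblasts. Summed over 8 astrocyte markers, fibroblasts held 1476 and 1839 CPM, which is 0.261 and 0.324 of the astrocyte sums of 5657 and 5675 CPM, and none was at 0. Gjb6 was not lower in fibroblasts than in astrocytes, as these markers, which were also used to name the classes, together were. Their part in the fibroblast level was not tested.

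The fibroblast class held 2 clusters. Cluster 22, led by Ranbp3l, Col4a6 and Slc6a20a, had 119 and 131 nuclei, and cluster 23, led by Slc47a1, Bnc2 and Adamtsl3, had 91 and 100. In cluster 22 Gjb6 had 198 CPM (160 to 242) and 111 CPM (85.4 to 142), and in cluster 23 it had 68.0 CPM (40.9 to 106) and 121 CPM (91.7 to 157). Cluster 22 was 2.91 times cluster 23 in library 1 (1.76 to 5.05) and 0.918 times in library 2 (0.631 to 1.34), so the order of the clusters was not shared by the libraries.

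Gjb6 reached 25 and 22 fibroblast nuclei with at least 2 UMIs, with a maximum of 12 and 11 UMIs in a nucleus, against 23 and 10 astrocytes with at least 2 and a maximum of 4 and 3. After thinning, 18.2% (13.2 to 24.1) and 14.8% (10.5 to 20.1) of fibroblasts and 13.6% (10.5 to 17.2) and 9.43% (6.83 to 12.6) of astrocytes had a UMI. Microglia, which should lack the gene, had 0.599% (0.0152 to 3.29) and 1.49% (0.307 to 4.28). Unthinned, the shares were 33.8% and 31.2% of fibroblasts and 24.7% and 17.1% of astrocytes, against 1.38% and 1.43% of microglia. Medians were 2950.5 and 3368 UMIs in fibroblasts, 2551 and 2885 in astrocytes and 1687 and 1980 in microglia.

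Gjb2 stood apart in fibroblasts. The gene lies beside Gjb6 on chromosome 14, from 57098600 to 57104702 on the same strand, with 18600 bases and 1 other gene model, Gm4491, between them. Fibroblasts held 58 UMIs at 77.4 CPM in library 1 (58.8 to 100.04) and 87 UMIs at 83.9 CPM in library 2 (67.2 to 103). Astrocytes held 5 UMIs at 4.27 CPM (1.39 to 9.96) and 9 UMIs at 6.94 CPM (3.17 to 13.2). The fibroblast level was 18.1 (7.34 to 57.9) and 12.1 (6.08 to 27.3) times the astrocyte level, and its ratio to each of the other 9 classes had an interval above 1 in both libraries. The next class was endothelial in library 1, at 7.03 CPM from 4 UMIs, and pericytes in library 2, at 12.96 CPM from 2 UMIs.

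Gjb2 in cluster 22 had 93.6 CPM (68.0 to 126) and 95.3 CPM (71.6 to 124), and in cluster 23 it had 50.1 CPM (27.4 to 84.1) and 70.1 CPM (48.3 to 98.5). The ratio of cluster 22 to cluster 23 was 1.87 in library 1 (1.00 to 3.69) and 1.36 in library 2 (0.866 to 2.16), with only the first interval above 1, at a lower bound of 1.0047. Thinned shares of fibroblasts with Gjb2 were 10.5% (6.72 to 15.5) and 8.30% (5.07 to 12.7), beside 1.198% (0.145 to 4.26) and 0.990% (0.120 to 3.53) of microglia. Unthinned they were 18.6% and 19.9%, beside 1.38% and 0.952% of microglia. Of 39 and 46 fibroblast nuclei with Gjb2, 18 and 23 also held Gjb6, which 71 of 210 and 72 of 231 fibroblasts held in all.

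The share of Gjb2 in the summed UMIs of both genes differed between the classes that carry Gjb6. The share was 34.1% (27.03 to 41.8) and 42.0% (35.2 to 49.1) in fibroblasts and 3.497% (1.14 to 7.97) and 9.47% (4.42 to 17.2) in astrocytes, with intervals that do not overlap in either library. In excitatory neurons, where Gjb6 stood at 1.98 and 2.18 CPM and Gjb2 at 0.749 and 1.22 CPM, the share was 27.5% (19.1 to 37.2) and 36.0% (28.0 to 44.5). Of 5 and 9 astrocytes with Gjb2, 0 and 2 also held Gjb6, which 110 of 445 and 73 of 428 astrocytes held in all. These are too few to compare.

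**Figure D3:**
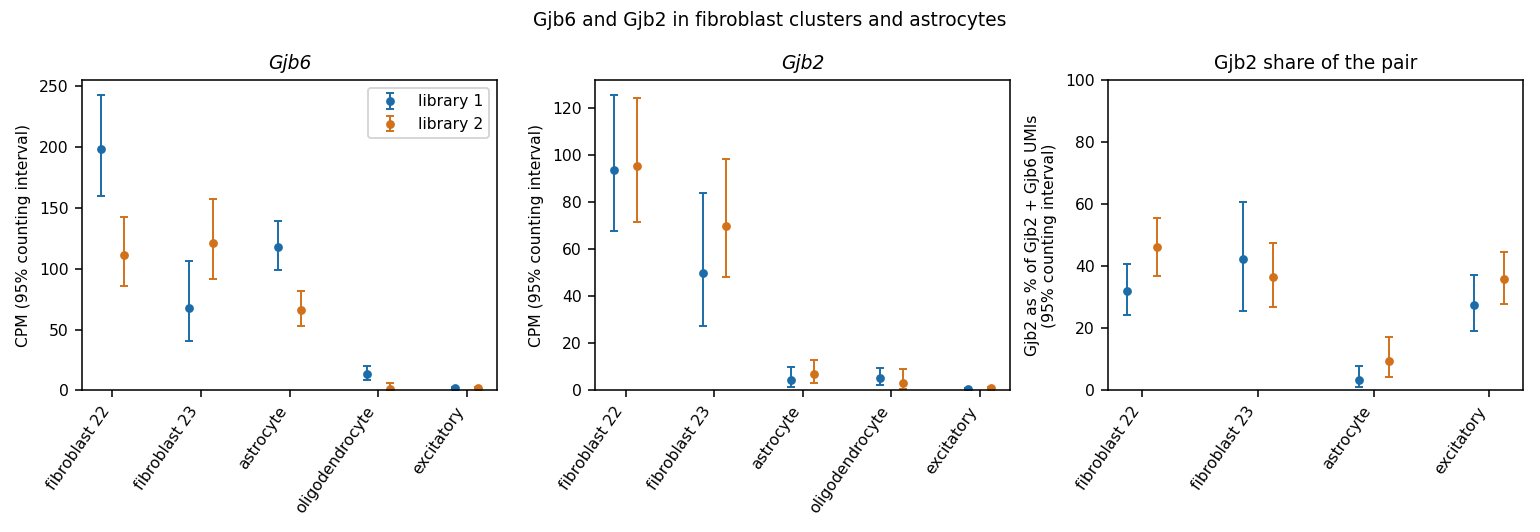
CPM of Gjb6 (left) and Gjb2 (middle) in the 2 fibroblast clusters, astrocytes, oligodendrocytes and excitatory neurons, and Gjb2 as a percentage of the summed Gjb2 and Gjb6 UMIs in the same groups without oligodendrocytes (right), for library 1 (blue) and library 2 (orange), with exact 95% Poisson (left, middle) and binomial (right) intervals. Gjb6 is high in fibroblast clusters and astrocytes and Gjb2 in fibroblast clusters, and the Gjb2 share is lowest in astrocytes, at 3.497% and 9.47%.

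Gjd2 was sparse, and its level was higher in inhibitory than in excitatory neurons. It lies on chromosome 2 from 114009601 to 114013619 on the minus strand, overlapped on the other strand by A530058N18Rik, which the matrix does not list. Inhibitory neurons held 39 UMIs at 6.69 CPM in library 1 (4.76 to 9.15) and 25 UMIs at 5.37 CPM in library 2 (3.48 to 7.93). Excitatory neurons held 21 UMIs at 0.562 CPM (0.348 to 0.858) and 23 UMIs at 0.563 CPM (0.357 to 0.845). Inhibitory neurons stood 11.9 (6.84 to 21.3) and 9.54 (5.20 to 17.6) times higher, with intervals well above 1. A Gjd2 UMI was seen in 4.87% of inhibitory neurons of library 1 (3.41 to 6.71) and 4.09% of library 2 (2.67 to 5.98), beside 0.489% (0.303 to 0.746) and 0.527% (0.334 to 0.789) of excitatory neurons at similar median depths of 7591 and 7076 against 7856.5 and 8441.5 UMIs. Thinned to 1500 UMIs, 0.417% and 0.655% of inhibitory neurons remained, from 3 and 4 nuclei, beside 0.116% and 0.160% of excitatory neurons. So few nuclei do not allow a contrast of the 2 classes to be read after thinning.

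Outside neurons, astrocytes and oligodendrocytes held 3 Gjd2 UMIs each in both libraries, at 1.70 to 3.18 CPM, and the ratio of inhibitory neurons to the next class was 2.61 over astrocytes in library 1 (0.831 to 13.2) and 1.69 over oligodendrocytes in library 2 (0.516 to 8.75). Gjd2 in inhibitory neurons was apart from 4 of the 9 other classes in library 1 and from 3 in library 2. Excitatory neurons were among them in both libraries, and oligodendrocytes in library 1 alone, at a ratio of 3.93 (1.25 to 19.9). At this depth inhibitory neurons were not apart from astrocytes, precursors, microglia, endothelial nuclei or pericytes in either library. The same held for oligodendrocytes in library 2. After thinning, Gjd2 was highest in astrocytes in library 1 and in oligodendrocytes in library 2, and with a mitochondrial limit of 1% it was highest in oligodendrocytes in library 2. Microglia, pericytes and fibroblasts held 0 UMIs in both libraries, which allows up to 6.22 and 5.82 CPM in microglia and 4.00 and 2.89 CPM in fibroblasts.

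By interneuron type, Gjd2 stood at 7.99 CPM (15 UMIs, 4.47 to 13.2) and 7.92 CPM (11 UMIs, 3.95 to 14.2) in Pvalb interneurons. Sst interneurons held 2.89 CPM (0.789 to 7.41) and 4.37 CPM (1.61 to 9.52), Vip interneurons 9.11 CPM (3.34 to 19.8) and 2.51 CPM (0.0636 to 13.99) and Lamp5 interneurons 4.78 CPM (0.985 to 13.96) and 1.66 CPM (0.0419 to 9.23). Their intervals overlap in both libraries, so no order of the 4 types could be read. Pvalb interneurons were 14.2 (6.82 to 28.9) and 14.1 (6.19 to 30.0) times the excitatory level. Subclusters pooled in the Pvalb type came almost wholly from 1 library, for example 1 with 0 and 121 nuclei. Over the 13 excitatory clusters Gjd2 ranged only from 0 to 1.23 CPM in library 1 and from 0 to 1.45 CPM in library 2.

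**Figure D4:**
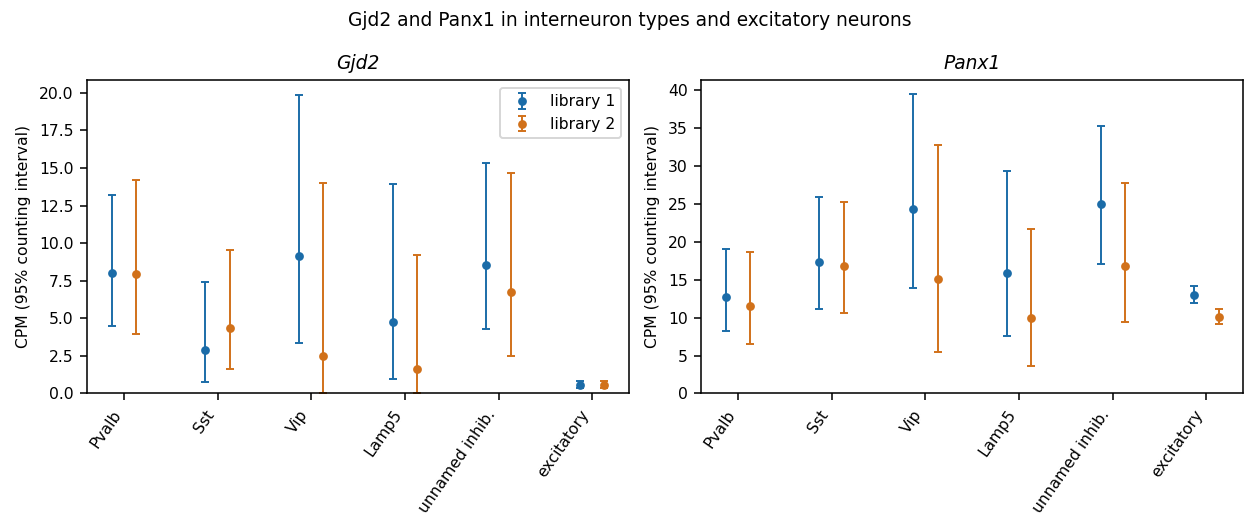
CPM of Gjd2 (left) and Panx1 (right) in interneuron types, the unnamed interneuron subclusters and excitatory neurons of library 1 (blue) and library 2 (orange), with exact 95% Poisson intervals. Gjd2 is lowest in excitatory neurons, at 0.562 and 0.563 CPM, while the interneuron types overlap for both genes.

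Panx1 was present in every neuronal class and in oligodendrocyte precursors at similar levels, and few other classes were apart from these in library 2. It lies on chromosome 9 from 15002128 to 15045478 on the minus strand. Inhibitory neurons held 106 UMIs at 18.2 CPM (14.9 to 22.0) and 66 UMIs at 14.2 CPM (10.97 to 18.04), and excitatory neurons 486 UMIs at 12.997 CPM (11.9 to 14.2) and 411 UMIs at 10.1 CPM (9.11 to 11.1). The inhibitory level was 1.40 (1.12 to 1.73) and 1.41 (1.07 to 1.83) times the excitatory level, a small difference with both intervals above 1. Striatal projection neurons stood at 12.04 and 12.8 CPM. Excitatory neurons were 3.81 (1.48 to 14.03) and 2.61 (1.11 to 8.08) times the astrocyte level of 3.41 CPM from 4 UMIs and 3.86 CPM from 5 UMIs. Against oligodendrocytes their ratio was 2.54 (1.33 to 5.59) and 1.36 (0.653 to 3.40), so only library 1 set these apart. The highest class was apart from 6 of the 9 others in library 1 and from 1 of 9, astrocytes, in library 2. Fibroblasts, with 4 and 10 UMIs, were among the classes not apart from it in library 2.

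In the oligodendrocyte lineage Panx1 stood at 13.2 CPM (7 UMIs, 5.31 to 27.2) and 16.2 CPM (9 UMIs, 7.41 to 30.8) in precursors and at 5.11 CPM (9 UMIs, 2.34 to 9.70) and 7.41 CPM (7 UMIs, 2.98 to 15.3) in oligodendrocytes. The precursor level was 2.58 (0.818 to 7.80) and 2.19 (0.724 to 6.91) times the oligodendrocyte level, with both intervals including 1. Cluster 27 of library 2 held 11 UMIs at 23.6 CPM (11.8 to 42.2), or 3.18 times the oligodendrocytes of that library (1.13 to 9.67). In library 1 it held 1 UMI, with a ratio of 10.5 (0.239 to 75.6), so only library 2 sets it apart.

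Panx2 showed no class of its own. It lies on chromosome 15 from 89059734 to 89073567 on the plus strand and overlaps 1810021B22Rik on the other strand, which the matrix also lists. The strand setting of the counting is not given in the sources used here, so reads of these genes may not be told apart. Excitatory neurons held 698 UMIs at 18.7 CPM (17.3 to 20.1) and 419 UMIs at 10.3 CPM (9.30 to 11.3), and inhibitory neurons 101 UMIs at 17.3 CPM (14.1 to 21.1) and 55 UMIs at 11.8 CPM (8.90 to 15.4). Astrocytes stood at 15.4 CPM in each library, from 18 and 20 UMIs, and oligodendrocytes at 9.09 and 8.47 CPM. Of the 45 pairs of classes, 3 in library 1 and 0 in library 2 had a ratio interval above 1, compared with 27 and 24 for Gjc3. The highest class was precursors in library 1, from 10 UMIs, and microglia in library 2, from 8 UMIs, and neither was apart from any other class.

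Within excitatory neurons Panx2 did vary. Cluster 11 had 355 and 208 nuclei and was led by Prox1, Glis3 and Maml2, of which Prox1 and Glis3 are known markers of dentate granule neurons. Panx2 stood there at 36.9 CPM (97 UMIs, 30.0 to 45.1) and 22.8 CPM (57 UMIs, 17.3 to 29.6), the highest of 13 excitatory clusters in both libraries. The other 12 reached at most 23.7 and 14.3 CPM, both in cluster 12, and the lowest stood at 11.5 CPM in cluster 20 of library 1 and 4.96 CPM in cluster 25 of library 2. Cluster 11 was 2.14 (1.71 to 2.65) and 2.42 (1.80 to 3.20) times the other excitatory clusters together. These intervals do not allow for a choice among 13 clusters. The share of all genes that reach such ratios in cluster 11 was not determined. Panx1 was not higher there, at 0.718 (0.460 to 1.07) and 0.502 (0.265 to 0.868) times the others, and Panx1 made up 20.5% (13.7 to 28.7) and 18.6% (10.3 to 29.7) of the summed pannexin UMIs in cluster 11, against 41.0% (38.2 to 43.9) and 49.5% (46.1 to 53.0) in all excitatory neurons. Of 433 and 376 excitatory neurons with Panx1, 75 and 38 also held Panx2.

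**Figure D5:**
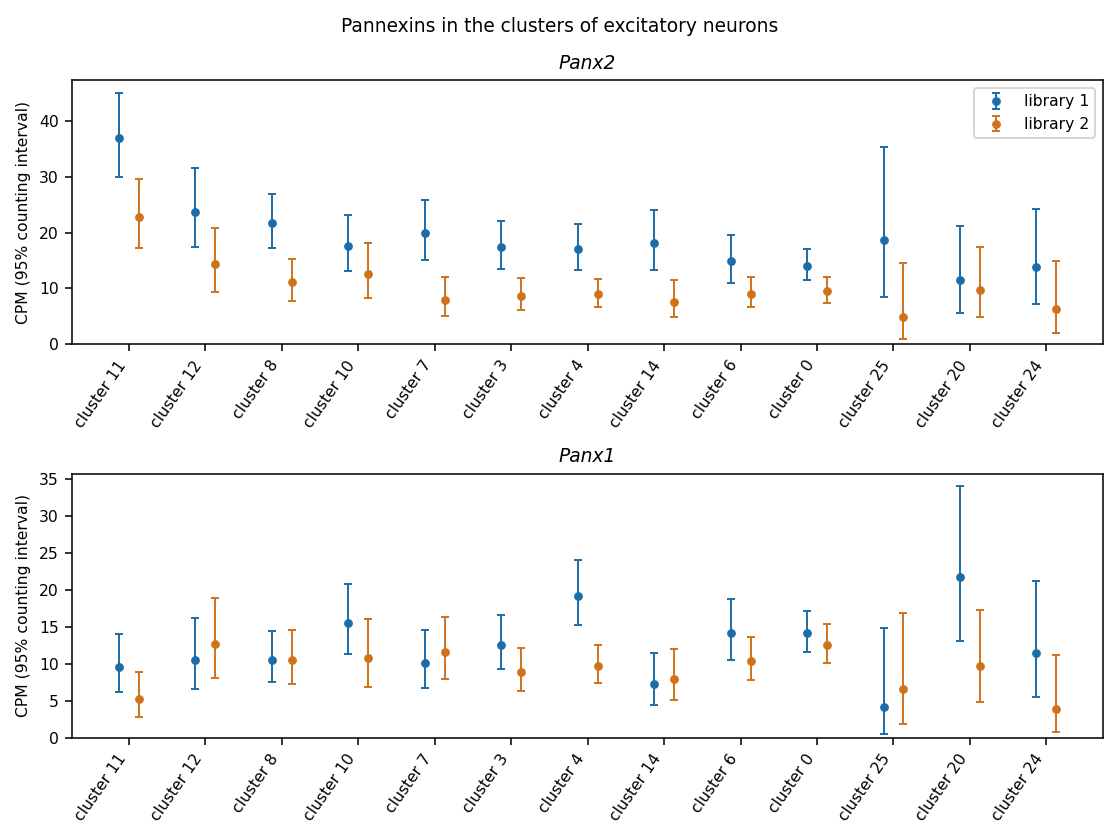
CPM of Panx2 (top) and Panx1 (bottom) in the 13 clusters of excitatory neurons, ordered by their mean Panx2 level, in library 1 (blue) and library 2 (orange), with exact 95% Poisson intervals. Cluster 11 has the highest Panx2 point in both libraries, at 36.9 and 22.8 CPM, and Panx1 does not follow it.

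Each library is 1 pool and its age is unknown, so the ratios of library 1 to library 2 below describe these libraries, with intervals for counting error alone. Of 26 member values in compared classes with at least 20 UMIs over both libraries, 8 had a ratio interval apart from 1. This count was not set beside that of all genes. The median ratio of all genes was 1.15 in excitatory neurons, 1.12 in oligodendrocytes, 1.07 in astrocytes and 1.05 in precursors, not 1. Being apart from 1 therefore does not set the members apart from all genes. Among the 8, Gjb2 in excitatory neurons was lower in library 1, at 0.612 (0.371 to 0.991), and the others were higher. Panx2 in excitatory neurons was 1.82 times as high in library 1 (1.61 to 2.06), a ratio that 9.86% of 17418 genes reached in that class, where the median of all genes was 1.15. Panx1 there was 1.29 times as high (1.13 to 1.48), with the class median of 1.15 inside its interval. Panx2 in inhibitory neurons was 1.47 times as high (1.05 to 2.08). Gjc3 in oligodendrocytes was 1.18 times as high (1.00 to 1.39), an interval that holds the class median of 1.12. The shares of genes that reach these ratios were not determined. Gjb6 in astrocytes was 1.78 times as high (1.35 to 2.35), a ratio that 7.99% of genes reached. Gjc3 in precursors was 2.21 times as high (1.58 to 3.13), which 3.57% of genes reached. In oligodendrocytes Gjb6 had 24 UMIs at 13.6 CPM (8.73 to 20.3) in library 1 and 1 UMI at 1.06 CPM (0.0268 to 5.90) in library 2, a ratio of 12.9 (2.10 to 529) that 0.117% of 10300 genes reached. The summed astrocyte markers in these oligodendrocytes were 359 CPM in library 1 and 398 CPM in library 2, 0.0635 and 0.0702 of the astrocyte sums. The oligodendrocytes of the libraries differed in other ways: at a clustering resolution of 2 they formed 1 cluster with 878 and 46 nuclei and 1 with 18 and 376, and their own markers summed to 8148 CPM in library 1 and 13625 CPM in library 2. The part of this split in the Gjb6 values was not tested.

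The genes whose levels were most like each member were sought over 20 points, the 10 classes of both libraries, among 12749 genes. Points share libraries and depth, so r is a description. Those genes had at least 100 UMIs in each library, a limit the members were not held to. Over the compared classes Gjb1 had only 36 and 27 UMIs and Gjd2 67 and 57. Gjb1 was most like Cldn14 (r = 0.971), A230001M10Rik (0.953) and Chdh (0.952), and Gjc3 most like Plxnb3 (0.968), Bcas1 (0.965), a marker used to name clusters, and Ugt8a (0.957), which encodes an enzyme of myelin lipid synthesis. For Gjb2 the nearest were Slc22a6 (0.972), Lmod1 (0.964) and Col13a1 (0.963), and for Gjb6 Fzd2 (0.959), Aox1 (0.956) and Gm5089 (0.946). Gjd2 was most like Alkal2 (0.849), Grik1 (0.828) and the inhibitory marker Erbb4 (0.816), and Panx1 most like Sntg1 (0.889), Smarca1 (0.880) and Dpp6 (0.878). Panx2 had weaker neighbours in Gtpbp4 (0.754), AI854703 (0.693) and Htt (0.691). Among the 7, the closest pairs were Gjb1 with Gjc3 (0.796) and Gjb2 with Gjb6 (0.760).

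Of 16 other connexin and pannexin genes, 4 in library 1 and 5 in library 2 had at least 20 UMIs. Gja1, which encodes Cx43, had its highest level in astrocytes, with 321 CPM (289 to 355) and 379 CPM (347 to 414). Gjc1, which encodes Cx45, was highest in pericytes at 324 CPM (232 to 439) and 259 CPM (185 to 353). The median over the measured genes of log2(CPM + 1) against the mean of the other classes was 1.99 and 1.09 in pericytes, beside -0.34 and -0.30 over all genes, 0.28 and 1.95 in endothelial nuclei, beside -0.10 and -0.04, and -3.02 and -1.95 in excitatory neurons, beside -0.30 and -0.42.

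Of 14 genes for scaffolds, kinases and turnover of gap junctions, 13 were measured. Tjp1, the junction scaffold ZO-1, was highest in endothelial nuclei, with 1322 CPM (1229 to 1420) in library 1 and 1822 CPM (1742 to 1904). Camk2a, a kinase of excitatory synapses, was highest in excitatory neurons at 926 and 834 CPM. Prkca stood at 609 and 661 CPM in oligodendrocyte precursors, its highest class in library 2, while excitatory neurons were highest in library 1. Of 15 purinergic partners, receptors and enzymes that handle released nucleotides, 12 were measured and 6 and 4 of them were highest in microglia, beside 13.9% and 15.6% of all genes. In microglia Entpd1, which degrades ATP outside cells, had 442 CPM (384 to 505) and 353 CPM (304 to 408), the ATP receptor gene P2rx7 had 114 CPM (85.9 to 148) and 95.1 CPM (70.4 to 126) there, and P2ry14 had 221 and 318 CPM in pericytes. Of 13 other large-pore channel genes, 10 were listed and 6 and 7 measured. Ano6 was highest in fibroblasts at 347 and 415 CPM, Lrrc8c in endothelial nuclei at 200 and 218 CPM, and Lrrc8d in oligodendrocytes at 144 and 157 CPM, both genes of volume-regulated anion channels.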

How the data were processed

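Values of the deposited matrix are unscaled UMI counts for each gene in each barcode, and the software version is 3.1.0, per the file headers. The authors used Cell Ranger 2.0.1, Seurat 3.1 and R 4.0.2 with mm10, per the submitters' processing notes, and this conflict of versions was not settled. Annotation, cell calling and the treatment of intronic reads: not given in the sources used here.

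Barcodes with under 200 genes or over 5% mitochondrial UMIs were left out. Scrublet marked only 0 and 2 doublets by its own threshold, so it had not worked, and nuclei with a score of 0.2 or more (305 and 332) were left out. Both libraries shared 19 barcode sequences. With scanpy 1.11.5, counts scaled to 10000 per nucleus, 2000 variable genes without the members and listed genes, 30 principal components and 15 neighbours gave Leiden clusters at resolution 1 (seed 1). Clusters were named from markers, with top genes ranked among those detected in at least a fraction of 0.5 of a cluster's nuclei, and clusters under 0.5 of the median UMIs without an own marker stayed unnamed. These limits were set after clusters were seen. UMIs were summed per class and library. Members, lists and naming rules were chosen with earlier results of these data known. Named genes are the members, the 3 genes most like each by Pearson r of log2(CPM + 10) with at least 100 UMIs in each library, and the 3 of each list with the highest CPM, of which 1 is not reported here. Calculations were checked on simulated counts. Alternatives are in the closing section.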

Additional observations from a re-analysis of the deposited data

How the results depend on the processing

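Of 97 member levels recomputed in their highest class, 92 stayed in the interval of the value reported. The 5 that moved were of Gjb2, Gjc3 and Gjd2. Gjb2 in fibroblasts of library 2 was 63.4 CPM with equal weight per nucleus and 61.1 CPM after thinning, against 83.9 CPM reported. Gjc3 in oligodendrocytes at a mitochondrial limit of 1% was 308 and 297 CPM, or 1.15 and 1.31 times the reported values. The level of Gjd2 in inhibitory neurons of library 1 was 2.78 CPM (3 UMIs) after thinning, 0.416 of the reported value, with astrocytes highest. In library 2 it was 4.36 CPM after thinning and 4.21 CPM with a mitochondrial limit of 1%, both with oligodendrocytes highest. In all, 10 of the 97 levels had another highest class, of which 3 were of Gjd2, 1 of Panx1 and 6 of Panx2. Where the number of members highest in a class moved by over 1.5 times, it was as follows. With doublets kept it was 1 in excitatory neurons and 1 in pericytes of library 1, and 1 in striatal neurons, 0 in microglia and 2 in pericytes of library 2. With a doublet score limit of 0.15 it was 1 in astrocytes and 0 in microglia of library 2. With a mitochondrial limit of 1% it was 1 in each of astrocytes, oligodendrocytes and endothelial nuclei of library 1, and 2 in astrocytes and 1 in endothelial nuclei of library 2. Gjb6 was then counted in astrocytes and Gjb2 in endothelial nuclei, whose cluster was led by Slc6a20a and Ranbp3l as fibroblast cluster 22 is, and Panx1 in place of Gjd2 in inhibitory neurons of library 2. Without that limit it was 1 in excitatory neurons of library 1 and 2 in inhibitory neurons of library 2. With equal weight per nucleus it was 0 in precursors of library 1, and 0 in microglia and 1 in endothelial nuclei of library 2. After thinning it was 0 in inhibitory neurons and 1 in oligodendrocytes of both libraries, and 0 in microglia and 1 in pericytes of library 2. With at least 50 UMIs per gene it was 1 in oligodendrocytes of both libraries, since Gjb1 is then not counted. It was 3 in place of 2 in inhibitory neurons of library 1 at the limit of 1%, and in fibroblasts of library 1 with equal weight and after thinning, each time with Panx2. Gjb1 stayed highest in oligodendrocytes after thinning and at the limit of 1%, but with under 20 UMIs it was not counted. The cause of the other moves was not tested. Doublets kept left no oligodendrocyte or precursor class to compare, the limit of 1% left no microglia, pericyte, fibroblast or precursor class, and no limit left no precursor class. A low-UMI limit of 0.33, chosen after seeing the data, and a resolution of 2 moved no level. No paired analysis was possible because the matrix counts as 1 sample. Depth limits Gjb1 and Gjd2 most, with 31 to 75 UMIs per library in kept nuclei.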
